A study of Bos taurus with 12 samples.

Results

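The genes described here give T cells their identity or carry the signal of the T cell receptor, and 5 were followed: CD5, ZAP70, THEMIS, GATA3 and BCL11B. A deposited cytosine belonged to a gene when its annotation placed it inside that gene, and distal intergenic cytosines were left out. This gave 20 sites of the 216,990 in the deposited table, with 5 in CD5, 5 in ZAP70, 2 in THEMIS, 4 in GATA3 and 4 in BCL11B. The authors had kept in the table only cytosines that differed between the same groups of cows. The group differences below are therefore descriptions of the selected sites, with no test.

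Blood of 12 dairy cows from a single farm was studied, all kept under the same conditions, aged 3 to 8 years and sampled before their later fate was known. The 6 subfertile cows were culled within the following year for reproductive complications, whose kind is not given in the labels. The 6 fertile cows were still in the herd at that time and had shown no fertility problem. The labels name no treatment, age per cow or breed, and they store the fertility status in a field called genotype. DNA was extracted from 1 mL of whole blood and converted with enzymes, so that methylated and hydroxymethylated cytosines are both read as methylated. Methylation is given as the percentage of calls at a cytosine that were methylated in a cow. All 20 sites had a value in all 12 cows, and the reads behind each value are unknown. Cows are numbered 1 to 6 in each group for naming only, and numbers pair no cows. The table's column letters F and R are carried by cows that the labels call subfertile and fertile. All directions follow the labels and would be opposite if these letters stood for the other group.

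T cells recognise antigen through a surface receptor that has no enzyme of its own. After contact, the kinase ZAP70 is recruited to the receptor complex and phosphorylates adaptor proteins, while THEMIS, a protein of developing T cells, adjusts the strength of that signal during selection in the thymus. CD5 is a surface glycoprotein that dampens receptor signalling. GATA3 and BCL11B are transcription factors, the first needed for T cell development and type 2 helper cells, the second for commitment to the T lineage. Methylation inside such genes differs between blood cell types, and whole blood mixes those types. A different share of T cells and a different methylation within cells cannot be told apart in such DNA. The sites were all chosen for a difference, so the labelled tissue could not be checked against marker genes.

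None of the 20 sites lay in a promoter or an exon. Introns held 19 sites (95%), against 83.2% of the 92,535 deposited sites inside or beside genes, and the remaining site lay in the 3′ untranslated region of BCL11B. The 20 sites formed 14 clusters when sites within 1 kb were joined. Mean methylation was higher in subfertile cows at 9 sites and lower at 11, against 52.1% higher and 47.9% lower among all deposited sites. The groups were free of overlap at 0 of the 20 sites, against 3.10% of all deposited sites. The median absolute difference of group means was 29.3 percentage points, against 33.3 points over the whole table. In the authors' deposited table the members' differences had absolute values from 26.4 to 45.4 points, with q-values up to 0.00914. The table itself begins just above 25 points and ends just below a q-value of 0.01, and sites outside these bounds are not analysed here. At 3 of the 20 sites (15%) the unweighted difference of the cows was under 25 points, against 9.85% of all deposited sites.

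**Figure D1:**
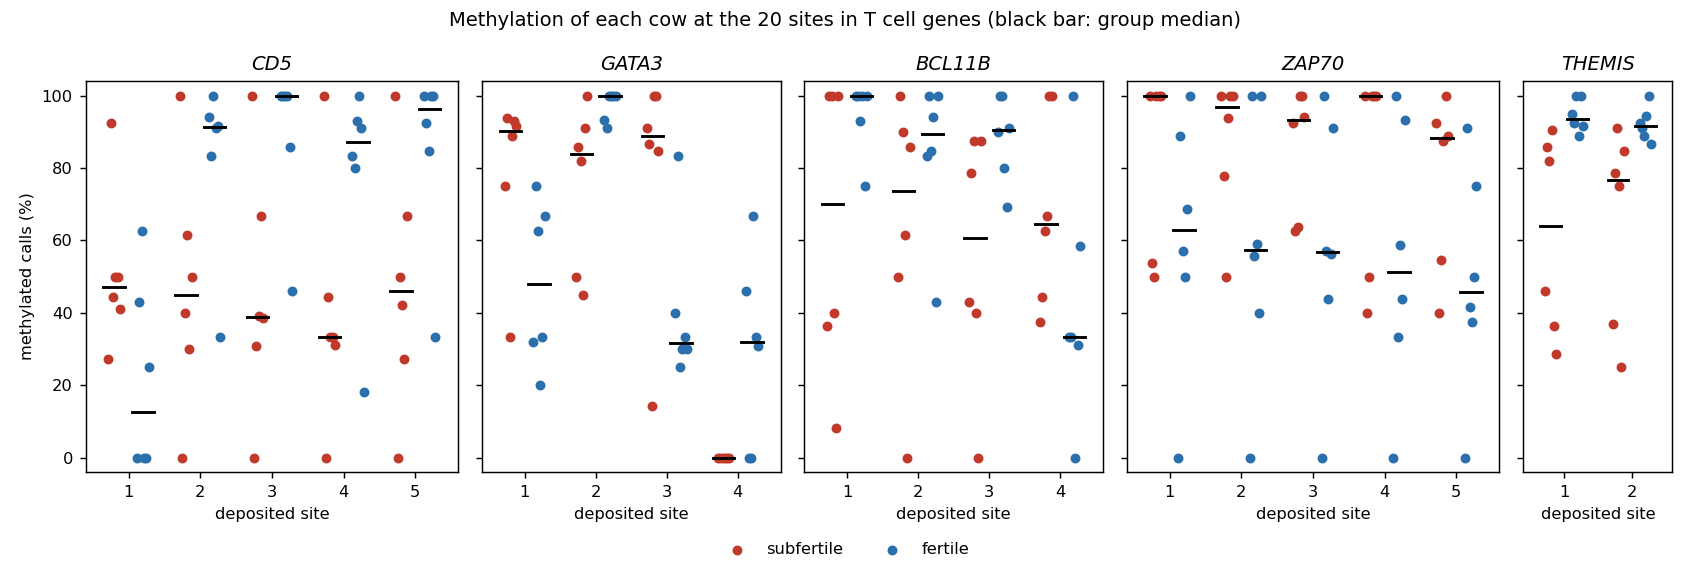
Percent methylated calls (y axis) of every cow at the 20 deposited sites, numbered along each gene (x axis). Each point is 1 cow, subfertile left and fertile right, and black bars are group medians. The groups overlap at every site, and only the 6 subfertile cows at GATA3 site 4 all share a value, 0.

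CD5 lies on chromosome 29 from 37422743 to 37445044 on the plus strand of ARS-UCD1.2. Its sites 2 and 3 are the plus and minus strand of 1 CpG in intron 1 of 10, at positions 37432343 and 37432344. Its sites 4 and 5 are the strands of another CpG in intron 9 of 10, at 37442683 and 37442684. Methylation at these 4 sites was lower in subfertile cows, and 10,341 bases separate the outermost sites. The range of values within a cow had a median of 17.9 points and a largest value of 39.4 points, while cows differed from each other by up to 100 points. Averaged over the 4 sites, subfertile cow 1 was at 100%, subfertile cow 2 at 0%, and subfertile cows 3 to 6 at 41.3, 44.0, 39.3 and 46.6%. Fertile cows 1 to 5 were at 94.4, 88.9, 94.4, 97.7 and 92.1%, and fertile cow 6 was at 32.8%. The groups overlapped, since subfertile cow 1 was above all fertile cows and fertile cow 6 was below 5 of the subfertile cows. The means were 45.2 ± 31.9% in subfertile and 83.4 ± 25% in fertile cows (SD, n = 6 each). The choice to average these 4 sites was made after their values were seen.

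The largest difference among all 20 sites was at CD5 site 3. Its lowest, median and highest values were 0, 38.8 and 100% in subfertile cows, against 46.2, 100 and 100% in fertile cows. Below the lowest fertile cow lay 4 of the 6 subfertile cows. CD5 site 1, in intron 1 at position 37428567 and 3,776 bases from site 2, ran the other way. It had 27.3, 47.2 and 92.3% as lowest, median and highest values in subfertile cows, against 0, 12.5 and 62.5% in fertile cows. Here subfertile cow 2, which was at 0% over sites 2 to 5, was the highest cow, and fertile cows 1, 4 and 5 were at 0%. Because site 1 opposes the others, the mean over all 5 sites, 46.3 ± 21.7% in subfertile and 71.0 ± 20.1% in fertile cows, understates the difference at sites 2 to 5. Its difference was -24.7 points with every site weighted alike, -15.7 points with sites within 1 kb averaged first, and -38.9 points with the median site of each cow.

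ZAP70 lies on chromosome 11 from 3047488 to 3087280 on the plus strand. It was the only gene of the 5 whose deposited sites were all higher in subfertile cows. Sites 1 and 2 are the strands of 1 CpG in intron 1 of 12, at 3061540 and 3061541. Sites 3, 4 and 5 lie in intron 12 of 12, at 3083885, 3084466 and 3084478. Over the 22,938 bases between the outermost sites, the range of values within a cow had a median of 13.1 points and a largest value of 37.8 points, while cows differed from each other by up to 100 points. Averaged over the 5 sites, subfertile cows 1 to 6 were at 96.9, 54.8, 53.6, 96.3, 100 and 96.6%. Fertile cow 1 was at 0%, fertile cows 3, 4 and 5 at 49.0, 49.8 and 51.8%, and fertile cows 2 and 6 at 96.0 and 91.8%. The cows thus stood near 3 levels, with no subfertile cow at the lowest and with cows of both groups at the other levels.

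The ZAP70 means were 83.0 ± 22.4% in subfertile and 56.4 ± 35.0% in fertile cows (SD, n = 6 each), a difference of 26.6 points. Without fertile cow 1 it was 15.4 points. At site 5, where the difference was largest, the lowest, median and highest values were 40, 88.2 and 100% in subfertile cows, against 0, 45.8 and 90.9% in fertile cows. At site 4 they were 40, 100 and 100% in subfertile cows, against 0, 51.3 and 100% in fertile cows. At sites 1, 2 and 3 the medians were 100, 96.9 and 93.2% in subfertile cows, against 62.9, 57.3 and 56.7% in fertile cows. Fertile cow 1 was at 0% at each of the 5 sites.

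THEMIS lies on chromosome 9 from 65724492 to 65923926 on the minus strand. Its site 1 lies in intron 5 of 5 at position 65727287 and its site 2 in intron 4 of 5 at 65747017. Both were lower in subfertile cows, and fertile cows differed little among themselves. At site 1 the lowest, median and highest values were 28.6, 64.0 and 90.5% in subfertile cows, against 88.9, 93.7 and 100% in fertile cows. At site 2 they were 25, 76.8 and 90.9% in subfertile cows, against 86.7, 91.6 and 100% in fertile cows. At each site 5 of the 6 subfertile cows lay below the lowest fertile cow, and the exception was subfertile cow 4 at site 1 and subfertile cow 3 at site 2. Over 80% stood 5 of 12 values in subfertile cows and 12 of 12 in fertile cows.

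Averaged over both THEMIS sites, subfertile cows 1 to 6 were at 41.5, 82.1, 86.4, 82.7, 30.7 and 56.6%, against 89.2 to 100% in fertile cows. These per-cow averages did not overlap, with means of 63.3 ± 23.9% in subfertile and 93.4 ± 3.71% in fertile cows (SD, n = 6 each). Among all 7,951 genes with a symbol and a mean in all cows, 3.38% were free of overlap, and nothing is read from the THEMIS average, since its sites were selected for this contrast. Subfertile cow 6 was at 28.6% at site 1 and at 84.6% at site 2, the widest gap between both sites in any cow. No cow lay under 10% at either site.

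GATA3 lies on chromosome 13 from 15906719 to 15935286 on the minus strand, and its 4 sites were split between the directions. Sites 1 and 3 in intron 5 of 5, at 15909756 and 15911428, were higher in subfertile cows. Site 2 in the same intron, at 15910819, and site 4 in intron 3 of 5, at 15917163, were lower. At site 3 the lowest, median and highest values were 14.3, 88.8 and 100% in subfertile cows, against 25, 31.7 and 83.3% in fertile cows. Subfertile cow 3 was below every fertile cow and the other 5 subfertile cows were above every fertile cow, so that leaving out this cow separated the groups. How often leaving out a cow does so over all deposited sites was not computed. Site 1 had 33.3, 90.3 and 93.8% in subfertile cows, against 20, 47.9 and 75.0% in fertile cows, with subfertile cow 3 again the lowest of its group.

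GATA3 site 2, which lies between sites 1 and 3, did not follow them. It had 45.0, 83.8 and 100% as lowest, median and highest values in subfertile cows, against 90.9, 100 and 100% in fertile cows. Site 4 was listed at 0 in all 6 subfertile cows. In fertile cows 1 to 6 it was at 46.2, 0, 0, 66.7, 33.3 and 30.8%. The groups met at 0, through fertile cows 2 and 3. Because the directions cancel, the mean over all 4 sites was 58.6 ± 14.4% in subfertile and 53.8 ± 5.39% in fertile cows (SD, n = 6 each), which overlapped widely. Its difference of 4.71 points became 9.95 points without subfertile cow 3, and 3.12, 2.24 and 2.61 points without subfertile cows 2, 5 and 6.

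BCL11B lies on chromosome 21 from 64193536 to 64290496 on the minus strand. Sites 1, 2 and 3 were lower in subfertile cows, and site 4 was higher. Site 1 lies in the 3′ untranslated region at position 64194173, 637 bases from the end of the gene, and sites 2 and 3 lie in intron 3 of 3 at 64231385 and 64241653. Averaged over sites 1 to 3, subfertile cows 1 to 6 were at 43.1, 92.9, 92.5, 47.2, 2.78 and 91.1%. Fertile cows 1 to 6 were at 91.1, 100, 92.5, 91.4, 62.4 and 97.0%. Subfertile cows 2, 3 and 6 thus lay within the range of the fertile cows, and subfertile cows 1, 4 and 5 were below all of them. The means were 61.6 ± 36.9% in subfertile and 89.1 ± 13.5% in fertile cows (SD, n = 6 each), and averaging these 3 sites was chosen after their values were seen.

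At BCL11B site 1 the lowest, median and highest values were 8.33, 70.0 and 100% in subfertile cows, against 75.0, 100 and 100% in fertile cows. At site 2 they were 0, 73.6 and 100% in subfertile cows, against 42.9, 89.4 and 100% in fertile cows. At site 3 they were 0, 60.7 and 87.5% in subfertile cows, against 69.2, 90.5 and 100% in fertile cows. Subfertile cow 5 was the lowest cow at all 3 sites. Without it the differences at sites 1, 2 and 3 were -19.4, -6.70 and -21.1 points, against -30.5, -19.6 and -32.3 points with all cows. Site 4, in intron 3 at 64247208 and 5,555 bases from site 3, had 37.5, 64.6 and 100% in subfertile cows, against 0, 33.3 and 100% in fertile cows. There subfertile cow 5 was at 100%. Over all 4 sites the difference was -14.2 points, -6.91 points without subfertile cow 5, and -25.8 points with the median site of each cow.

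**Figure D2:**
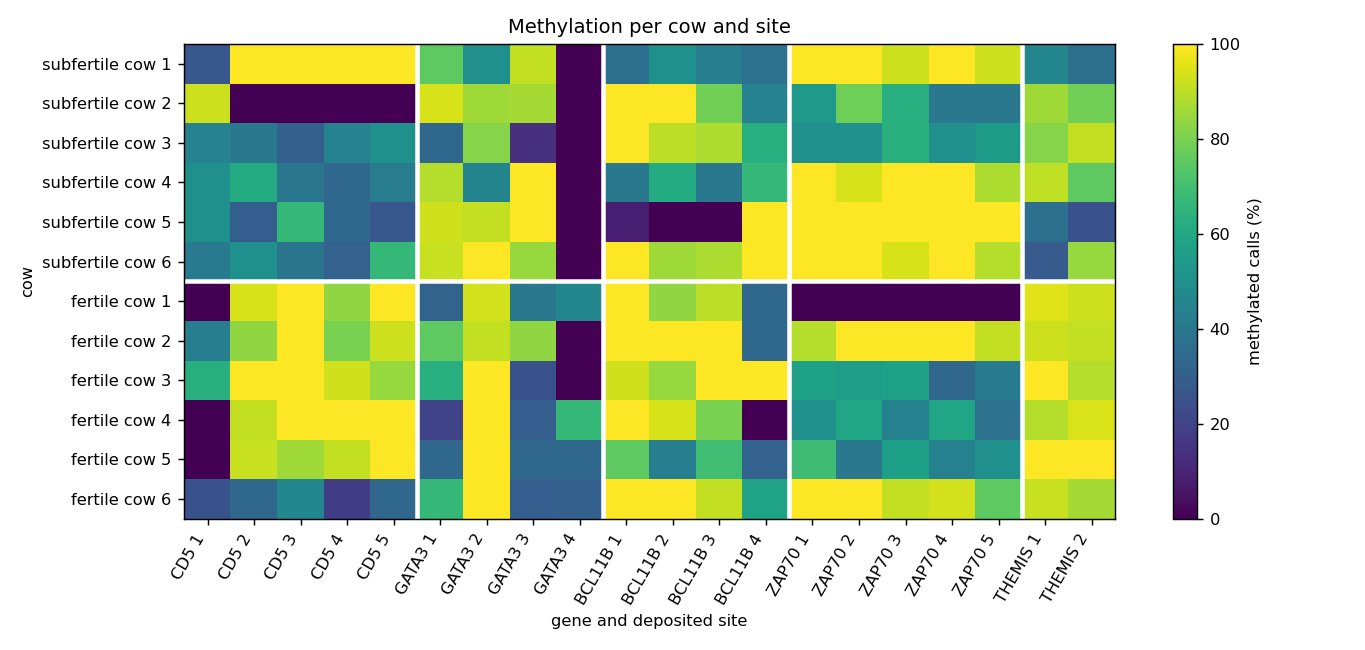
Percent methylated calls (colour scale, 0 to 100%) of each cow (rows, subfertile above fertile) at each of the 20 sites (columns, grouped by gene, numbered along the gene). Runs of like colour along a row show CD5 sites 2 to 5, BCL11B sites 1 to 3 and ZAP70 sites 1 to 5, where cows keep their level from site to site, and the cows that stand apart differ between genes.

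How far the cows' values varied together between sites was described with Pearson's r over the 12 cows' deviations from their own group mean, which leaves the group difference out. It follows the size of the deviations and not the rank of the cows. All r values share the same 12 cows and libraries. Among the 33 pairs of sites in the same gene, r was at or beyond 0.8 in size for 19, with a median absolute r of 0.887. Among the 157 pairs of sites in different genes 1 reached 0.8, with a median absolute r of 0.257. In ZAP70 all 10 pairs had r from 0.887 to 0.965, and from 0.776 to 0.940 without the 2 cows farthest from the median at the first site of the pair. In BCL11B, site 1 in the 3′ untranslated region and site 3 had r = 0.949 over 47,480 bases, and site 4 had r from -0.190 to 0.0116 with the other 3 sites. Over the whole table, r was at least 0.8 in size for 76.9% of pairs of strands of a CpG and for 58.9% of other neighbouring sites up to 1 kb apart. The share was 44.5% for neighbours over 1 and up to 5 kb apart, 32.2% over 5 and up to 15 kb, and 22.0% over 15 and up to 50 kb. The pairs within the 5 genes mix these distances, so their share is not set against any single value.

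In CD5 the 6 pairs among sites 2 to 5 had r from 0.812 to 0.933, and site 1 had negative r with each of them, from -0.593 to -0.415. Without the 2 farthest cows, which were among subfertile cows 1 and 2 and fertile cow 6, the 6 pairs had r from 0.556 to 0.838. Spearman's rho of the 6 pairs, over all 12 cows, ran from 0.466 to 0.753. GATA3 sites 1 and 3, 1,672 bases apart, had r = 0.743, and 0.397 without subfertile cow 3 and fertile cow 4. Site 2 lies between them and had r = 0.0137 with site 1 and -0.267 with site 3. The median absolute r of 0.761 for neighbours over 1 and up to 5 kb apart covers adjacent deposited sites only. Sites 1 and 3 are not adjacent, so their r is not set against it. THEMIS sites 1 and 2 had r = 0.508 over 19,730 bases, and 0.918 without subfertile cows 4 and 6.

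Averages over CD5 sites 2 to 5, ZAP70, BCL11B sites 1 to 3, GATA3 sites 1 and 3, and THEMIS gave 10 pairs of genes with r from -0.431 to 0.614. BCL11B and THEMIS had the highest, 0.614 (Spearman's rho 0.336), which was 0.428 without 2 cows, and both were low in subfertile cows 1 and 5. ZAP70 and GATA3 had 0.598 (Spearman's rho 0.650), and 0.582 without 2 cows. ZAP70 and THEMIS had the lowest, -0.431 (Spearman's rho -0.678), and -0.621 without 2 cows. The median absolute r of the 10 pairs was 0.341, and no pair was tested. CD5 and ZAP70 had -0.0425. The cow at 0% throughout CD5 sites 2 to 5 was subfertile cow 2, and the cow at 0% throughout ZAP70 was fertile cow 1.

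Among the members 3 CpGs were deposited on both strands, which gives a pair of readings of the same CpG in the same cow. Over these 36 pairs of readings the median absolute difference was 7.25 percentage points and the largest was 36.7 points. Over the 47,992 CpGs deposited on both strands the median was 5.71 points.

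Values both under 10% and over 80% occurred among the cows at 14 of the 20 sites (70%), against 69.9% of all deposited sites. These were all sites of CD5, BCL11B and ZAP70, and no site of GATA3 or THEMIS. Of the 240 values, 24 (10%) lay under 10%, 101 (42.1%) between 10 and 80%, and 115 (47.9%) over 80%. Over the whole table the shares were 21.9, 42.9 and 35.3%.

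The variation between cows seen inside the genes was also looked for at other deposited sites within 200 kb. For CD5 sites 2 to 5, 18 of 52 such sites had r at or beyond 0.8 in size, 16 positive and 2 negative. They included both strands of a CpG in VPS37C, a neighbouring gene, at positions 37460238 and 37460239, with r = 0.914 and 0.948. For ZAP70, 18 of 74 did, 17 positive and 1 negative, the farthest 198,875 bases away. Of these 18, 7 lay within 50 kb, among them 5 sites inside C11H2orf92, the nearest of them 27,778 bases before ZAP70 site 1. For GATA3 sites 1 and 3, 8 of 23 did, all distal intergenic sites on the side of the gene's end and within 28,650 bases, 3 positive and 5 negative. For BCL11B 5 of 24 did, none of them within 50 kb, and for THEMIS 1 of 51. The threshold of 0.8 was chosen after the data were seen. The share of site pairs reaching it within 200 kb was not computed over the whole table, so these counts have no background beside them.

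**Figure D3:**
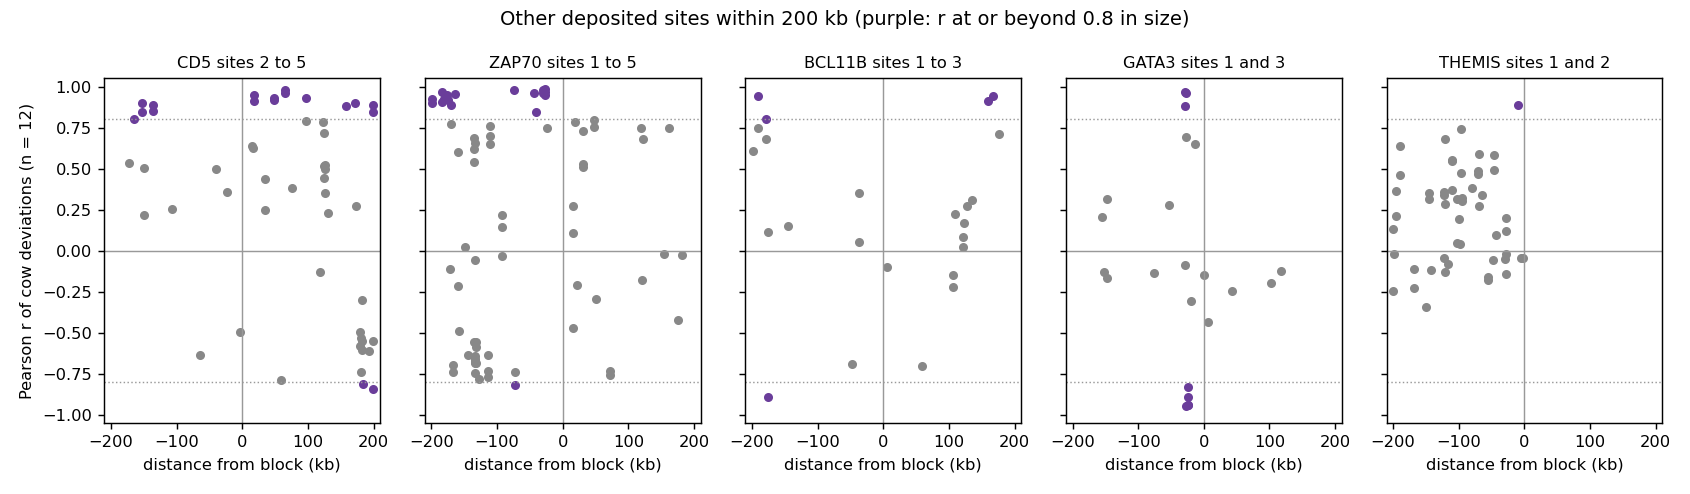
Pearson r (y axis) between the cows' deviations at other deposited sites and those averaged over the named member sites, against the distance in kb from the member sites (x axis, 0 also for sites between them). Purple points have r at or beyond 0.8 in size. This held for 18 of 52 sites around CD5, 18 of 74 around ZAP70, 5 of 24 around BCL11B, 8 of 23 around GATA3 and 1 of 51 around THEMIS. A share over the whole table at such distances was not computed.

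Another 85 deposited sites had a member as their nearest gene without lying in it, 47 of them distal intergenic. Around THEMIS there were 42, of which 29 lay in another gene, and 12 were higher and 30 lower in subfertile cows. Around GATA3 there were 24, all distal intergenic, with 11 higher and 13 lower. Counts for ZAP70 were 8 higher and 5 lower, for CD5 1 and 2, and for BCL11B 2 and 1. Of the 85, 34 (40%) were higher in subfertile cows, against 52.1% of all deposited sites, and 3 (3.53%) had groups free of overlap, against 3.10%.

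Other genes of T cell development and receptor signalling were taken from a list of 55, of which 26 held a deposited site. Their 214 sites were higher in subfertile cows at 95 (44.4%) and lower at 119, against 52.1% higher in the whole table. The groups were free of overlap at 5 of the 214 sites (2.34%), 4 in RUNX1 and 1 in NOTCH1, against 3.10% of all deposited sites. The NOTCH1 site was higher in subfertile cows, by 26.9 points. Subfertile minus fertile differences at the RUNX1 sites, in order of position, were 37.8, 41.7, 42.2 and -34.6 points. At the first and last of these RUNX1 sites subfertile cow 3 had no value, and at the last fertile cow 2 had none either. The 4 genes with the most sites were RORA (40), RUNX1 (30), PRKCQ (26) and NOTCH1 (21). NOTCH1, the receptor whose signal starts the T cell programme in the thymus, was lower at 19 of 21 sites, with 52.9 ± 23.4% in subfertile and 83.8 ± 13% in fertile cows over all its sites. PRKCQ, a kinase downstream of the T cell receptor, was higher at 17 of 26 sites, with 61.1 ± 11.1% in subfertile and 47.0 ± 7.82% in fertile cows. RORA, a nuclear receptor of helper T cells and innate lymphoid cells, had 43.1 ± 2.76% in subfertile and 49.4 ± 5.91% in fertile cows. RUNX1, a transcription factor of blood stem cells and T cells, had 55.0 ± 12.7% in subfertile and 56.2 ± 4.91% in fertile cows (SD, n = 6 each for the 4 genes). Among the 17 listed genes with at least 3 sites, 4 were higher in subfertile cows at every site. They were IKZF3 (8 sites), IL2RA (6), IL7R (3) and STAT4 (3). Another 2 were lower at every site, CD247 (5) and MYB (4). How common such genes are in the whole table was not counted. The cows' values often varied together at neighbouring sites, so sites of a gene are not separate readings. Nothing is therefore read from how many genes ran in a single direction. IL2RA, which encodes a chain of the interleukin-2 receptor, had 86.3 ± 18.4% in subfertile and 49.9 ± 20.1% in fertile cows. CD247, which encodes the zeta chain that ZAP70 binds, had 69.5 ± 30.4% in subfertile and 97.1 ± 2.68% in fertile cows (SD, n = 6 each for both genes). The cow averages of the groups overlapped in both genes, and also in each of the 4 genes with the most sites. The 6 genes that ran in a single direction were named after their values were seen.

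**Figure D4:**
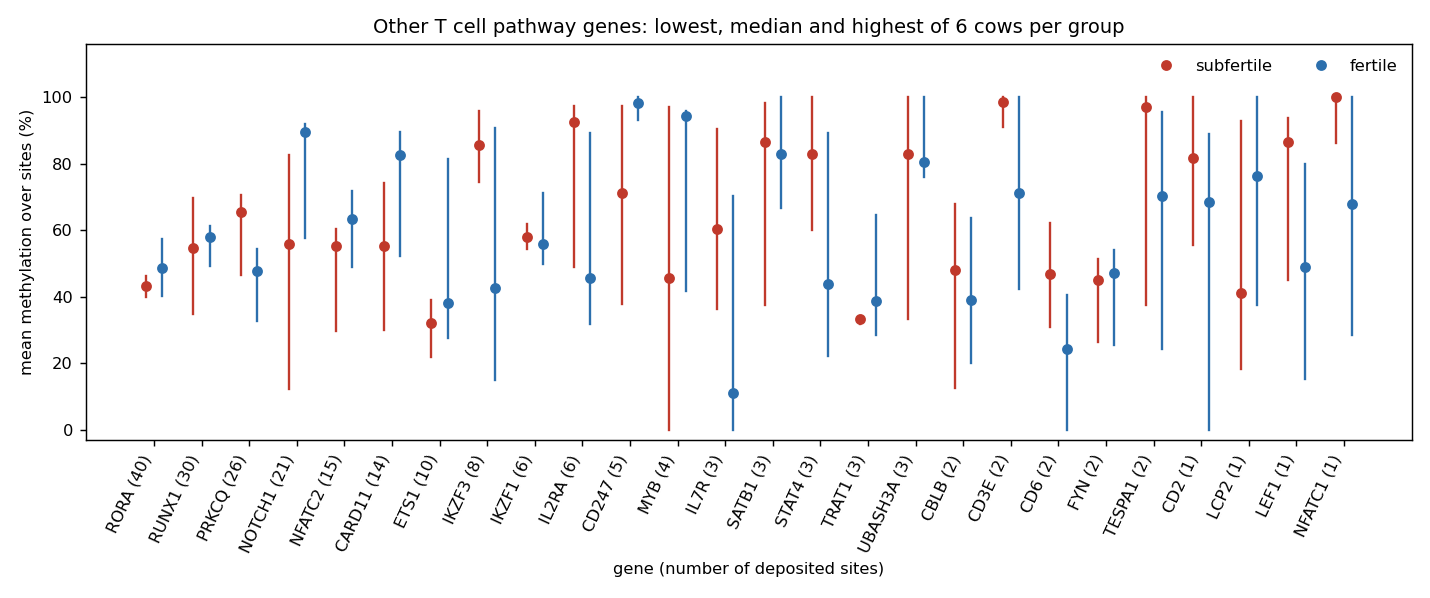
Mean methylation over each gene's deposited sites (y axis, percent) for the 26 listed T cell pathway genes with a site (x axis, number of sites in brackets). Points are medians and lines run from the lowest to the highest of 6 cows, subfertile left and fertile right, and 14 genes had a higher and 12 a lower mean in subfertile cows.

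Markers of other blood cells stood beside these results as follows, and their part in them was not tested. Of 8 B cell markers 6 held a site, 121 of their 138 sites in BANK1, and 114 of the 138 (82.6%) were higher in subfertile cows, against 52.1% of all deposited sites. At 22 of them (15.9%), all in BANK1, the groups were free of overlap, against 3.10%. The average of the 6 genes had a median of 67.3% and a range of 51.9 to 79.2% in subfertile cows, against a median of 49.3% and a range of 42.1 to 74.2% in fertile cows. Of 7 natural killer cell markers 6 held a site, and 10 of their 15 sites were lower in subfertile cows, against 47.9% of all deposited sites. At 1 of the 15 (6.67%), in NKG7, the groups were free of overlap, against 3.10%. The average of these 6 natural killer genes had a median of 57.6% and a range of 48.2 to 59.0% in subfertile cows. In fertile cows the median was 62.7% and the range 54.8 to 73.6%. Of 8 neutrophil markers 2 held a site, 1 higher and 1 lower in subfertile cows, and none of 6 monocyte markers did. The neutrophil average ran from 23.1 to 90% in subfertile cows and from 65.6 to 100% in fertile cows. The groups were free of overlap at 1 of these 2 sites, in MPO, against 3.10% of all deposited sites. Of 10 T cell markers, which include CD5, BCL11B, ZAP70 and THEMIS, 7 held a site. Of their 21 sites 12 (57.1%) were higher in subfertile cows and 9 lower, against 52.1% higher among all deposited sites. The groups were free of overlap at 0 of the 21, against 3.10%. Their average ran from 59.1 to 75.8% in subfertile cows and from 53.9 to 77.6% in fertile cows. Without these members, 3 of 6 markers held a site, namely CD2, CD3E and CD6. All 5 of their deposited sites were higher in subfertile cows, against 52.1% of all deposited sites. The groups were free of overlap at 0 of the 5, against 3.10%. The average of these 3 genes ran from 68.5 to 79.5% in subfertile cows and from 29.9 to 66.4% in fertile cows. How often such averages are free of overlap over the whole table was not computed. Nothing is read from this average, since the sites were selected for this contrast.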

How the data were processed

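Per the labels' protocols, whole blood DNA was converted with TET2, T4-BGT and APOBEC3A and sequenced. Tools in the submitters' processing notes are Bismark, DRAGEN, fastp 0.23.1 and ChIPseeker 1.32.1, with ARS-UCD1.2 as the build. The deposited table gives the percent of methylated calls per cytosine and cow, and the authors' difference, p-value and q-value, per the file headers. The authors' test, weighting and read minimum were not given in the sources used here. Depth is unknown, so no interval is given. All per-cow columns were matched to cows by number.

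Sites were assigned to genes by the Ensembl identifier in the annotation, and by symbol where it has none (the BCL11B untranslated site). Levels are means over sites per cow, with SD over cows, computed in Python 3.11.15 with pandas 2.3.3. Overlap and r functions were checked on simulated data. No test of the groups was made, because the deposited sites were selected on them. Members, lists and averaged sites were chosen with earlier results of these data known. The naming rule took all 5 genes with all their sites, and the 4 listed pathway genes with the most sites. Alternatives were other site averages, stricter thresholds, nearest gene, and each cow left out.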

Additional observations from a re-analysis of the deposited data

Results flagged for a closer look

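In each group of 6 cows at each site, and for each gene's mean over sites, the highest and lowest cow was flagged when its gap to the nearest cow exceeded Dixon's 95% critical share of the group's range. Of 50 such groups 11 were flagged, and sites of a gene are not independent of each other. The rule flags about 1 in 20 groups by chance only where values are normally distributed. Methylation percentages are bounded, and 14 of the 20 sites held values both under 10% and over 80%. The 11 flags are therefore not read as an excess over chance. Fertile cow 6 was low in CD5, with 33.3% at site 2, 46.2% at site 3, 18.2% at site 4 and 33.3% at site 5, while the next fertile cows were at 83.3, 85.7, 80 and 84.6%. Its mean over all CD5 sites was 31.2%, with the next fertile cow at 73.7%. At CD5 site 1 subfertile cow 2 was high at 92.3%, with the next at 50%. In GATA3, subfertile cow 3 was low at site 1 with 33.3% (next 75.0%) and at site 3 with 14.3% (next 84.6%), and fertile cow 2 was high at site 3 with 83.3% (next 40%). In BCL11B, fertile cow 5 was low at site 1 with 75.0% (next 92.9%) and at site 2 with 42.9% (next 83.3%).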

How the results depend on the processing

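No alternative reversed the direction of a gene's difference or of a site's difference. This was largely fixed in advance, since the authors kept each site for a difference between these same cows. The authors' differences also had the sign of the unweighted ones at every deposited site. For GATA3 the difference of 4.71 points became 20.5 points with the median site of each cow and 39.1 points at its 1 site with a deposited difference of at least 40 points; its sites run in both directions. For CD5 the difference of -24.7 points became -40.0 points over the 2 sites with a deposited difference of at least 40 points, which are also its sites with a deposited q of at most 0.0001, and -15.7 points with sites within 1 kb, or the strands of a CpG, averaged first, and -38.9 points with the median site of each cow. Where 9 of 20 sites were higher in subfertile cows, the count was 2 of 6 without sites spanning under 10 to over 80%, 1 of 3 at 40 points or more, and 0 of 2 at a deposited q of at most 0.0001. The shares of all deposited sites under these stricter settings were not computed. By nearest gene, 16 of 56 sites were higher, against 52.1% of all deposited sites. In that setting 1 site, in PTPRK beside THEMIS, had groups free of overlap, against 3.10% of all deposited sites. The 29 sites counted for THEMIS in that setting all lay in another gene, so neither of its own 2 sites was among them. With each cow left out in turn, 0 to 2 sites had groups free of overlap: GATA3 site 3 and THEMIS site 2 without subfertile cow 3, and THEMIS site 1 without subfertile cow 4 or without fertile cow 4. The share of all deposited sites free of overlap with a cow left out was not computed, so nothing is read from these counts. Gene differences with each cow left out ranged from -32.7 to -19.1 points in CD5, 2.24 to 9.95 in GATA3, -20.2 to -6.91 in BCL11B, 15.4 to 34.6 in ZAP70 and -34.7 to -23.6 in THEMIS. Some stricter settings left no site of a gene and gave no value: no site of CD5, BCL11B or ZAP70 without the spanning sites, none of BCL11B, ZAP70 or THEMIS at 40 points, and none of these or of GATA3 at the stricter q. No paired analysis was possible because the labels number no pairs of cows and no test was made. Averaging the strands of a CpG first and the authors' own differences were added after the data were seen.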
